A study of Mus musculus with 4 samples.

Results

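The genes described here encode the machinery by which the T cell receptor signals, from the CD3 chains at the membrane to the NFAT transcription factors. The 45 members were taken from a list of pathway genes that was chosen with earlier results of these data known. Each was represented by its brightest probe set of a single gene symbol. Of the 45, 44 were found among the 18194 genes with such a probe set, and 43 lay above the filter on dim genes that left 12253 genes for testing. Grap2 was measured but lay under that filter, and Lck is not analysed here.

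Expression was measured on Affymetrix arrays in CD4+ T cells from the large intestine lamina propria, the tissue layer under the gut epithelium, of mice on a mixed 129/B6 background. All mice were heterozygous for a GFP knock-in at the Gpr15 locus, so cells of both groups carried 1 GFP allele and 1 intact allele of Gpr15, a chemoattractant receptor known for homing to the large intestine. Cells were released with collagenase and sorted into GFP+ (labelled GPR15+) and GFP- (labelled GPR15-) fractions, with 2 arrays for each fraction, numbered replicate 1 and 2. The sources used here do not give the age of the mice, whether animals were pooled or whether arrays of equal number share animals. The p-values therefore reflect only the spread among these 4 samples.

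Signalling starts when Src family kinases phosphorylate the tyrosine motifs of the CD3 and zeta chains, which then bind the kinase ZAP70. ZAP70 phosphorylates the scaffold LAT, on which SLP-76, Gads, PLC-gamma and Ras activators assemble. The resulting calcium and diacylglycerol drive calcineurin and NFAT, protein kinase C-theta with the BCL10 and MALT1 complex, and the Ras pathway, while phosphatases, diacylglycerol kinases and inhibitory adaptors restrain the signal.

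Gpr15 itself gave 146 and 162 on the GFP- arrays and 619 and 729 on the GFP+ arrays (adjusted p = 0.0829, limma). The replicate numbers also separated the arrays across the groups: Xist, expressed from the inactive X chromosome of females, gave 4172 and 4313 for number 1 and 55.1 and 112 for number 2. The Y-linked Eif2s3y gave 18.9 and 5.08 for number 1 and 2329 and 2177 for number 2, so the 2 arrays of each group held RNA of different animals. Differences within each number are therefore given beside the pooled ones. Among defining genes of the sorted cells, Cd3e had a signal of 4717 or more on every array and Cd4 lay between 501 and 587, in both fractions, although the series text once writes the GFP- cells as lacking CD4. Markers of other cell types were also present. Over all tested genes, 57.7% had a positive difference. Groups were apart, with both GFP+ signals above both GFP- signals, for 28.7%. Among tested genes with a mean signal under 100, 29.7% had a negative difference. All 11 macrophage and monocyte markers had a positive difference, with summed signals of 217 and 331 on the GFP- arrays against 303 and 1393 on GFP+ replicates 1 and 2, and C1qc lay below 3 on the other arrays than GFP+ replicate 2. The 7 dendritic cell and MHC class II markers summed to 468 and 1103 against 1074 and 2391. Of 7 epithelial markers 6 had a positive difference, 2 of them (Epcam and Krt18) with groups apart, and the list had sums of 387 and 478 against 1660 and 428. The 6 B cell markers had positive differences, with groups that overlapped for each gene and sums of 154 and 188 against 222 and 234. The 3 natural killer and innate lymphoid genes measured summed lower, to 76.1 and 156.5 against 39.9 and 54.1. Of these, Eomes was lower with groups apart and Klra8 with overlapping groups. Ncr1 was dim and higher on both GFP+ arrays, at 2.77 and 2.28 against 12.6 and 6.79. Sums overlapped between the groups for the macrophage and monocyte, the dendritic cell and MHC class II, and the epithelial lists. They also overlapped at 61.4 to 84.7 for the 2 CD8 genes and 4759 to 7364 for plasma cells. The same held at 427 to 1018 for stroma and endothelium and 213.0 to 348 for mast cells. Among 5 T cell genes outside the members, Cd2, Cd27 and Icos were higher and Thy1 and Cd40lg lower on both GFP+ arrays, and the list summed to 6228 and 6060 against 7712 and 6786. The part of these other cells in the results that follow was not tested.

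None of the 43 tested members passed at an adjusted p under 0.05 (limma over all genes), where 4 genes of 12253 did, all higher in GFP+ cells (0.0326% higher and 0% lower). With p taken without adjustment, 10 members were lower and 2 higher in GFP+ cells at the same threshold. Over all tested genes these shares were 4.37% lower and 10.2% higher, against 23.3% and 4.65% of the members. The same 12 members had groups that did not overlap and differed by at least 0.5 on the log2(signal + 16) scale, where 6.60% of all genes were lower and 15.5% higher by that measure. A difference of at least 1 with groups apart was found for 2 lower and 0 higher members, and for 1.31% and 3.40% of all genes. By overlap alone, 22 members were lower and 5 higher, beside 18.6% and 28.7% of all genes. The difference was negative for 33 of 43 members, while it was positive for 57.7% of all genes. The median difference was -0.17 over the members and 0.07 over all genes. Within the replicate numbers the members' median was -0.22 and -0.18, against 0.07 and 0.06. In bulk samples such as these, fewer cells that express a gene and less RNA per cell cannot be told apart.

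The arrays differed between dim and bright genes, so the members were also set beside genes of like signal. The members were bright, with a median signal of 545 against 105 over all genes. Among the 2028 tested genes with a mean signal from 300 to 1000 the median difference was -0.07 and 8.04% were lower at an unadjusted p under 0.05. Of the 14 members in that range 5 were, with a median of -0.22. Among the 1458 genes above 1000 the median was -0.08 and 3.22% were lower, while 1 of 17 members was, with a median of -0.16. From 100 to 300 the shares were 6.52% of 2760 genes and 4 of 7 members. Below 100 they were 2.43% of 6007 genes and 0 of 5 members. From 300 to 1000, 58.7% of genes and 11 of 14 members had a negative difference. Above 1000 these shares were 62.8% and 14 of 17, and from 100 to 300 they were 47% and 5 of 7. Below 100 they were 29.7% and 3 of 5. Groups were apart, with GFP+ lower, for 31.8% of genes and 7 of 14 members from 300 to 1000. The shares were 33.2% and 10 of 17 above 1000 and 21.9% and 4 of 7 from 100 to 300. Below 100 they were 9.19% and 1 of 5. Leaving out 1 array lowered the count of 10 lower members to 5 without GFP- replicate 1, GFP- replicate 2 or GFP+ replicate 2, and to 8 without GFP+ replicate 1. The 2 higher members became 1 without GFP- replicate 1 or GFP+ replicate 1.

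**Figure D1:**
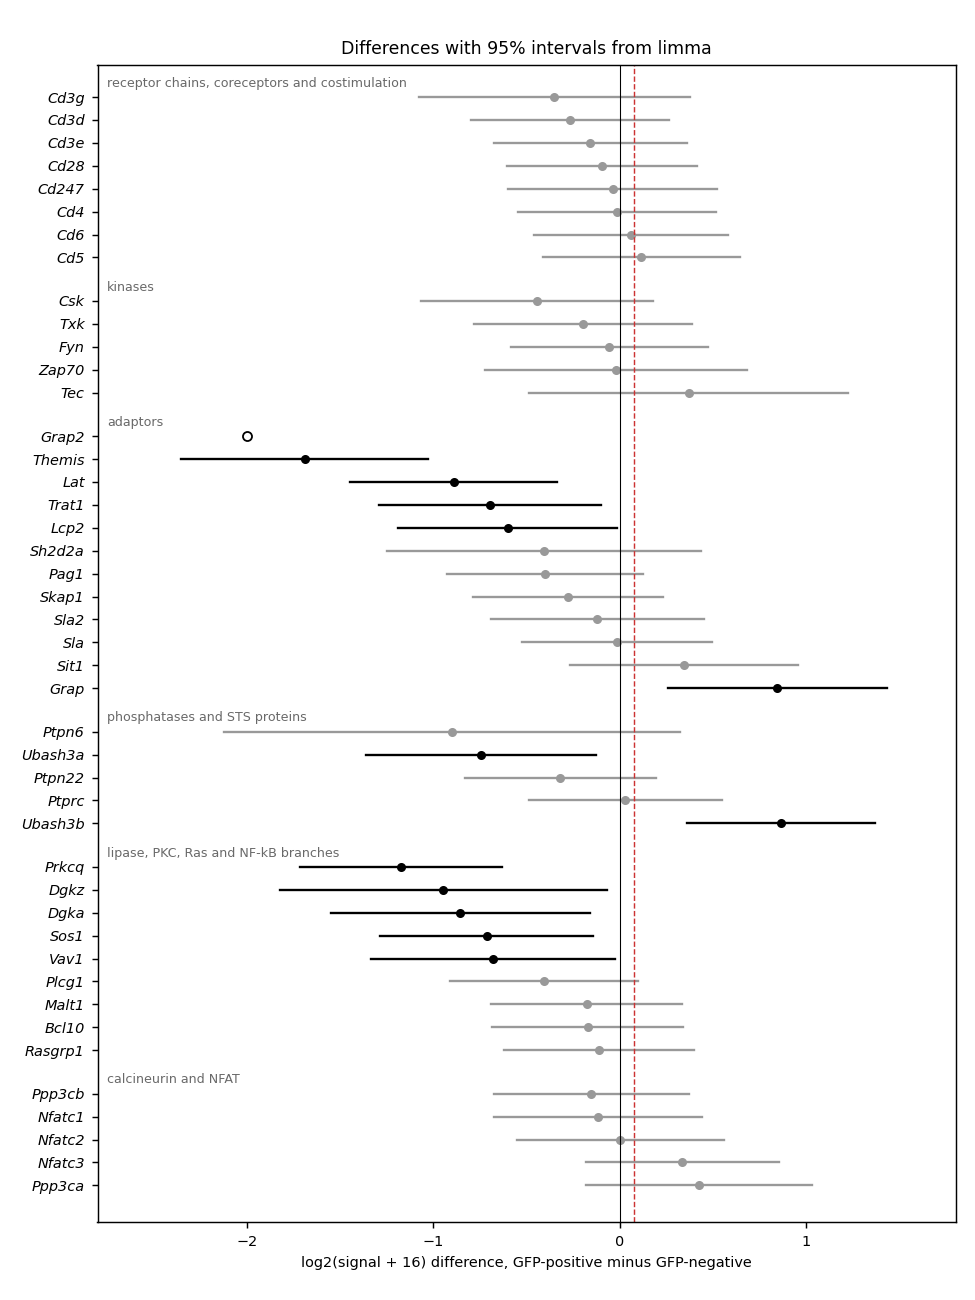
Log2(signal + 16) difference of each measured member, GFP+ minus GFP- (x axis), by role (y axis), with 95% intervals from limma; black marks an unadjusted p under 0.05, the open circle is Grap2, which was under the filter, and the dashed line is the median of all tested genes, 0.07. The 10 lower members in black lie among the adaptors, the phosphatase group and the lipase, PKC and Ras branch, and no receptor chain, tyrosine kinase, calcineurin or NFAT gene is black.

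In all, 4 of the members kept an unadjusted p under 0.05 in all 15 alternative settings, namely Themis, Prkcq, Lat and Ubash3b. A promoter window of each is shown with one of Grap2, which had the largest difference on the log2(signal + 16) scale. They show what sequence these genes have before an annotated start. Each line holds the 250 bases before an annotated RefSeq start (GRCm38.p6), read 5′ to 3′ on the gene's strand. This start need not be the outermost one of the gene. The Themis window shown ends at the outer edge of the gene's annotated span. Those of Prkcq, Grap2 and Ubash3b lie inside the span, and that of Lat overlaps its edge. Capitals mark any match to 4 short motifs on either strand. The motifs were CCGGAA for ETS factors, TGTGGT for RUNX, CTTTGA for TCF and LEF and TGTTTA for forkhead factors, and no line holds more than 1 match. The windows are Themis at chr10:28668110-28668359 (plus strand), Prkcq at chr2:11172132-11172381 (plus), Lat at chr7:126369569-126369818 (minus), Grap2 at chr15:80623233-80623482 (plus) and the downstream one of 2 annotated starts of Ubash3b at chr9:41079507-41079756 (minus).
Themis: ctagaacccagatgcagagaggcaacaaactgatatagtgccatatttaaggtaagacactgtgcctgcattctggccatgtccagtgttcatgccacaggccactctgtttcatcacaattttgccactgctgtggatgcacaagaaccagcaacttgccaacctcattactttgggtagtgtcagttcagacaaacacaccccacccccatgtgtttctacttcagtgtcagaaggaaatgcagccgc
Prkcq: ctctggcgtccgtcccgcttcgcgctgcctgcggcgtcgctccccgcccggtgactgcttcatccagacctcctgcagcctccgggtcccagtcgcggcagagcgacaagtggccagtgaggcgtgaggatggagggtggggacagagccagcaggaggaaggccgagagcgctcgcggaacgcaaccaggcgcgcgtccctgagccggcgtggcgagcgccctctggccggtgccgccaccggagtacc
Lat: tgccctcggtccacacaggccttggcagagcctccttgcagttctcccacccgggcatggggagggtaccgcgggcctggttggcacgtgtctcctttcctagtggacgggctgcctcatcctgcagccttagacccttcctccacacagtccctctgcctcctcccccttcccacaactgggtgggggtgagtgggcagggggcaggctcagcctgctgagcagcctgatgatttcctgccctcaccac
Grap2: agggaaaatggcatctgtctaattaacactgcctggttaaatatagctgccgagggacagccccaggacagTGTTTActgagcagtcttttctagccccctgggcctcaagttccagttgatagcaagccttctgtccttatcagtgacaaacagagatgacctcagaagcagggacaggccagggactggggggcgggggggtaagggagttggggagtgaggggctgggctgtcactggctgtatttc
Ubash3b: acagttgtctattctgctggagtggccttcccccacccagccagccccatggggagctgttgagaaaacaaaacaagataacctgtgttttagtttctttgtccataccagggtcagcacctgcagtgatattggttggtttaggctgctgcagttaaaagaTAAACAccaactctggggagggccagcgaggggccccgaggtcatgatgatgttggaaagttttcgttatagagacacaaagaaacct
Only the forkhead letters matched, once in Grap2 and once in Ubash3b, 179 and 88 bases before the annotated start used. That motif was found in 12% of all 32851 windows of this length and in 6 of the 49 windows of the 34 members that have one. The upstream start of Ubash3b (chr9:41158063-41158312) and the second start of Themis (chr10:28668145-28668394) held none of the 4 motifs. ETS letters were in 12% of all windows and 3 of 49 member windows, RUNX in 14.0% and 7, and TCF in 13.8% and 11. The Prkcq window was rich in CG dinucleotides, with 30 of them and 72.4% G or C, while that of Themis held 1, Grap2 2, Ubash3b 3 and Lat 6. Among the 4 genes lower in GFP+ cells the share of G or C ran from 48.0% in Themis to 72.4% in Prkcq. A match is a description of letters only.

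The receptor chains were close to level between the fractions. The 8 genes of receptor chains, coreceptors and costimulation had differences from -0.35 to 0.12 and a median of -0.07, and 0 of 8 had an unadjusted p under 0.05. Cd3e, which pairs with both other CD3 chains, had signals of 5443 and 5615 on the GFP- arrays and 5208 and 4717 on the GFP+ arrays, a difference of -0.16 (95% interval -0.67 to 0.36). Cd3d had 2694 and 2800 against 2470 and 2104, a difference of -0.27 (-0.80 to 0.27). For both genes the GFP+ signals lay below the GFP- signals without a gap beyond the interval. Cd3g had 2164 and 1463 against 1630 and 1188, and its groups overlapped, with a difference of -0.35 (-1.08 to 0.38). Cd247, the zeta chain that carries most of the receptor's tyrosine motifs, had 612 and 482 against 527 and 531, a difference of -0.04 (-0.60 to 0.52). The CD4 coreceptor gene had 501 and 587 against 540 and 533, a difference of -0.01 (-0.54 to 0.51). Both of these groups overlapped, and the signs of Cd247 and Cd4 turned under quantile and cyclic loess normalization. Cd28, the main costimulatory receptor, differed by -0.09 (-0.60 to 0.42) at signals from 2881 to 3214. Cd5 and Cd6, scavenger receptor family members that dampen the receptor signal, differed by 0.12 and 0.06, and under median scaling by -0.19 and -0.25. Median scaling placed the median of all genes at -0.20 in place of 0.07 and Cd3e at -0.48, so levels near 0 here are relative to the deposited scaling.

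**Figure D2:**
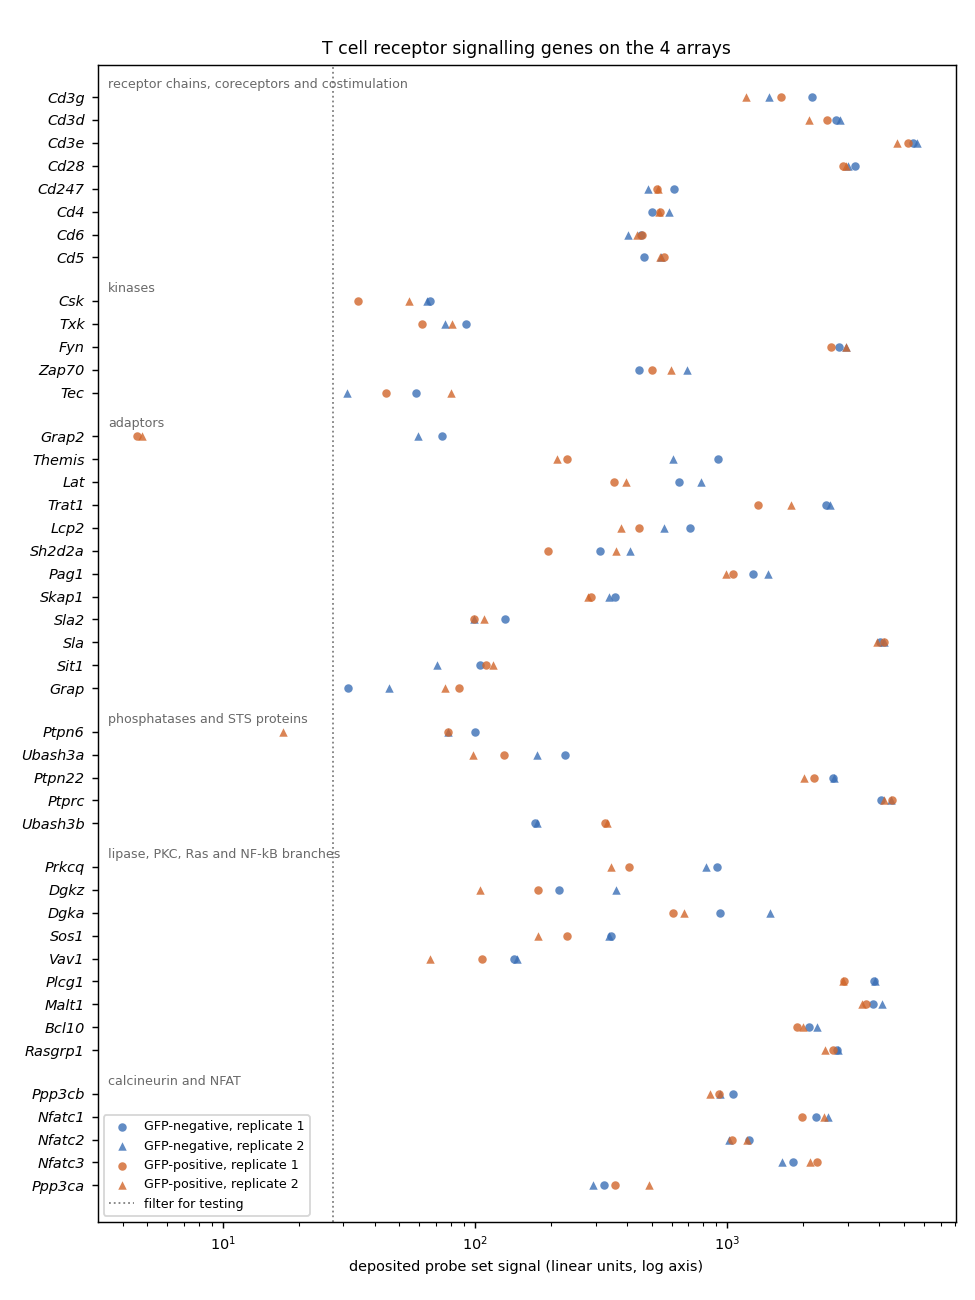
Deposited signal of each measured member on the 4 arrays (x axis, log scale), by role (y axis), with GFP- arrays in blue and GFP+ arrays in orange, circles for replicate 1 and triangles for replicate 2; the dotted line is the filter for testing, a signal of 27.3. The blue and orange points of Themis, Prkcq, Lat and Grap2 stand apart, while those of Cd4, Cd247, Sla and Ptprc mix.

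Of the 5 tyrosine kinase genes tested, 0 had an unadjusted p under 0.05. Fyn, the Src family kinase measured here, was bright on the probe set used. Its signals were 2771 and 2961 on the GFP- arrays and 2567 and 2956 on the GFP+ arrays. The difference was -0.06 (-0.59 to 0.47). Its other, dimmer probe set had 405 and 537 against 339 and 371, a difference of -0.38 with groups apart. Zap70, the kinase that docks on the phosphorylated chains, differed by -0.02 (-0.72 to 0.68), with 444.0 and 693 against 502 and 596 in overlapping groups. The signs of Fyn and Zap70 turned under quantile and cyclic loess normalization. The other tyrosine kinase genes had signals under 100 on all arrays. Csk, which phosphorylates the inhibitory tyrosine of Src kinases, had 66.1 and 64.2 against 34.1 and 54.8, a difference of -0.45 (-1.07 to 0.18). The Tec family kinase genes Txk and Tec differed by -0.20 and 0.37, and Tec took opposite signs within the numbers, -0.30 and 1.04.

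The adaptors held the largest differences of the list. Themis, an adaptor that binds GRB2 and the phosphatase SHP-1 and is needed for positive selection in the thymus, had signals of 917 and 608 on the GFP- arrays and 231 and 211 on the GFP+ arrays. Every GFP+ signal lay below every GFP- signal, and the difference was -1.69 (-2.35 to -1.03, adjusted p = 0.144, limma), with -1.92 and -1.46 within replicate numbers 1 and 2. Its 3 other probe sets differed by -0.85 to -1.59. The adjusted p ran from 0.00514 to 0.382 over the 15 alternatives and was under 0.05 in 2 of them, with a pseudocount of 64 and with trend and robust settings.

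Grap2, which encodes Gads, the bridge between LAT and SLP-76, had signals of 74.0 and 59.5 on the GFP- arrays and 4.54 and 4.77 on the GFP+ arrays. Both GFP+ signals lay under 27.3, the signal at which the filter was set, and the mean of the log2(signal + 16) values over the 4 arrays lay under the filter too, so it was not tested. Its difference was -2.0, with -2.13 and -1.86 within the replicate numbers, and its second, dimmer probe set differed by -1.10. Without the filter limma gave an adjusted p of 0.277.

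Lat and Lcp2, which encode the partners of Gads, and the adaptor gene Trat1 were lower as well, by smaller amounts. Lat, the membrane scaffold, had signals of 641 and 786 on the GFP- arrays and 355 and 397 on the GFP+ arrays, so the groups did not overlap. Its difference was -0.89 (-1.45 to -0.33, adjusted p = 0.230, limma), with -0.82 and -0.96 within the replicate numbers. Lcp2, which encodes SLP-76, had 711 and 560 against 448 and 377, a difference of -0.60 (-1.19 to -0.01), and its other probe set differed by -0.70. Trat1, the receptor-associated adaptor TRIM, was bright at 2457 and 2540 against 1319 and 1788, a difference of -0.70 (-1.29 to -0.10), and its other probe set differed by -0.51. Within the numbers Lcp2 differed by -0.65 and -0.55 and Trat1 by -0.89 and -0.50, and under median scaling Lcp2 differed by -0.91. Both of these had non-overlapping groups, with an unadjusted p under 0.05 in 8 of 15 alternatives for Lcp2 and 12 of 15 for Trat1.

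Grap, a GRB2-like adaptor related to Grap2 in sequence, was on the other side. Its signals were 31.2 and 45.6 on the GFP- arrays and 86.5 and 75.6 on the GFP+ arrays, which did not overlap. The difference was 0.85 (0.26 to 1.43, adjusted p = 0.250, limma), with 1.12 and 0.57 within the replicate numbers. A pseudocount of 64 gave 0.50. Genes with signals under 100 had a median difference of 0.23, and 13.9% of them were higher at an unadjusted p under 0.05.

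The other adaptors differed by less. Pag1, the membrane anchor of CSK, differed by -0.40 (-0.93 to 0.12) and Skap1, which couples the receptor to integrins, by -0.28 (-0.78 to 0.23), both with groups apart. Sh2d2a, the T cell-specific adaptor TSAd, differed by -0.41 (-1.25 to 0.44), and Sit1, an inhibitory membrane adaptor, by 0.34 (-0.27 to 0.96). Sla, a Src-like adaptor that lowers receptor levels, was among the brightest members at 4031 and 4160 against 4191 and 3926, a difference of -0.01 (-0.52 to 0.50). Its relative Sla2 differed by -0.12 (-0.69 to 0.45). Pag1, Sla and Sla2 turned sign with the mean of their probe sets.

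**Figure D3:**
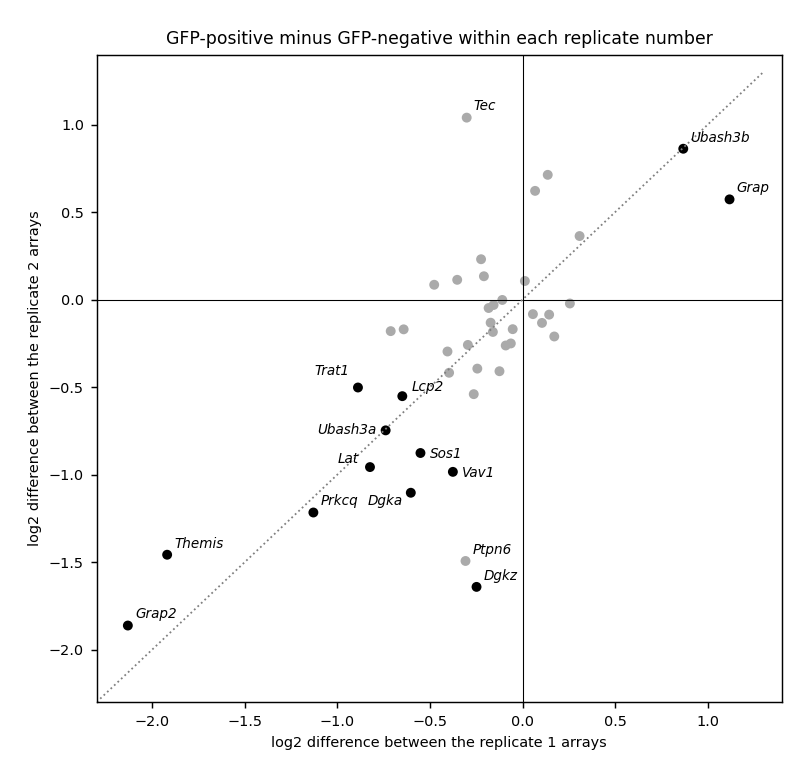
Log2(signal + 16) difference, GFP+ minus GFP-, for each measured member, within number 1 (x axis) and within number 2 (y axis); black points have an unadjusted p under 0.05 or are Grap2, and the dotted line marks equal differences. Themis, Prkcq, Lat, Ubash3a and Ubash3b lie near the line, while Dgkz and Ptpn6 are lower mainly within number 2 and Tec has opposite signs.

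The phosphatase group split between its 2 STS proteins, which bind ubiquitin and restrain receptor signalling. Ubash3a had signals of 227 and 176 on the GFP- arrays and 130 and 98.1 on the GFP+ arrays, a difference of -0.74 (-1.36 to -0.13). Ubash3b had 172 and 176 against 327 and 334, a difference of 0.86 (0.36 to 1.37). Neither gene's groups overlapped, and the adjusted p was 0.290 for Ubash3a and 0.216 for Ubash3b (limma). Within the replicate numbers the differences were -0.74 and -0.75 for Ubash3a and 0.87 and 0.86 for Ubash3b. The other probe set of Ubash3a, at a mean signal of 56.8, differed by -0.13, and those of Ubash3b by 0.99 and 0.38. The difference of Ubash3a was -0.44 with averaged probe sets and that of Ubash3b 0.57 under median scaling.

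The remaining phosphatases were Ptprc, Ptpn22 and Ptpn6. Ptprc, which encodes CD45 and activates Src kinases by removing their inhibitory phosphate, had signals of 4056 and 4437 on the GFP- arrays and 4481 and 4179 on the GFP+ arrays, a difference of 0.03 (-0.49 to 0.55). It was level within its spread, and became -0.29 under median scaling and -0.14 when its probe sets were averaged. Ptpn22, a phosphatase of Src kinases and ZAP70, differed by -0.32 (-0.83 to 0.19) with groups apart. Ptpn6, which encodes SHP-1, had 100.1 and 77.7 against 77.7 and 17.3, a difference of -0.90 (-2.12 to 0.32) that was -0.31 and -1.49 within the replicate numbers. Its second probe set, of nearly equal mean signal (63.3 against 68.2), had 119 and 105 against 6.97 and 22.5. Those groups did not overlap, and both GFP+ signals lay under 27.3.

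All 9 members of the lipase, PKC, Ras and NF-kB branches were lower on both GFP+ arrays than on both GFP- arrays. By that measure 18.6% of all genes were lower, and 33.2% of the genes with signals above 1000. The share was 31.8% from 300 to 1000 and 21.9% from 100 to 300. The median of the 9 members was -0.68, and 5 of 9 were lower at an unadjusted p under 0.05, as were 4.37% of all genes. These 5 had mean signals from 100 to 1000. There 6.52% of genes from 100 to 300 and 8.04% from 300 to 1000 were lower by that threshold. Prkcq, which encodes protein kinase C-theta of the immune synapse, had signals of 913 and 824 on the GFP- arrays and 408 and 345 on the GFP+ arrays. Both GFP+ signals lay below both GFP- signals, and the difference was -1.17 (-1.72 to -0.63, adjusted p = 0.167, limma), with -1.13 and -1.22 within the replicate numbers. With 1 array left out it ran from -1.29 to -1.06. Its adjusted p was under 0.05 in 2 of 15 alternatives, at 0.0225 with a pseudocount of 64 and 0.0113 with trend and robust settings, and ran up to 0.392.

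The 2 diacylglycerol kinases, which consume the diacylglycerol that activates PKC-theta and RASGRP1, were lower too. Dgka had signals of 935 and 1468 on the GFP- arrays and 610 and 675 on the GFP+ arrays, a difference of -0.85 (-1.55 to -0.16). Dgkz had 214 and 361 against 177 and 105, a difference of -0.95 (-1.82 to -0.07). Groups were apart for both, but the spread was wide, since Dgkz differed by -0.25 and -1.64 within numbers 1 and 2, and Dgka by -0.60 and -1.10. The difference of Dgka was -0.53 without GFP- replicate 2, and that of Dgkz was -0.61 without GFP+ replicate 2 and -0.59 without GFP- replicate 2.

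Sos1, a Ras activator that binds GRB2, had signals of 347 and 338 on the GFP- arrays and 231 and 177 on the GFP+ arrays, a difference of -0.71 (-1.28 to -0.15). Vav1, a guanine nucleotide exchange factor phosphorylated after receptor engagement, had 142 and 147 against 106 and 66.3, a difference of -0.68 (-1.33 to -0.03). Neither gene's groups overlapped. Within the numbers Sos1 differed by -0.55 and -0.88 and Vav1 by -0.38 and -0.98. Vav1 differed by -0.40 without GFP+ replicate 2, and with averaged probe sets Vav1 differed by -0.31 and Sos1 by -0.34. One of 3 other probe sets of Sos1 above the filter and the other probe set of Vav1 had small differences of the opposite sign, 0.30 and 0.06. Rasgrp1, the diacylglycerol-activated Ras activator, was bright and close to level on the probe set used, with a difference of -0.11 (-0.62 to 0.40). Its other probe sets differed by -0.50 to 0.13. The one of -0.50, at a mean signal of 308, had groups apart.

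Plcg1, the lipase that makes diacylglycerol and the calcium-releasing messenger, had signals of 3817 and 3854 on the GFP- arrays and 2895 and 2880 on the GFP+ arrays. The arrays of each group lay close together and the groups were apart, and the difference was -0.41 (-0.91 to 0.10, unadjusted p = 0.0944, limma). Its 2 other probe sets were dim, at mean signals of 68.2 and 36.7, and differed by 0.49 and 0.77. Malt1, the protease of the complex that leads to NF-kB, had 3768 and 4104 against 3536 and 3419, a difference of -0.18 (-0.69 to 0.34). Its partner Bcl10 differed by -0.17 (-0.69 to 0.34). The 3 other probe sets of Bcl10 differed by -0.12 to -0.16, while those of Malt1 differed by 0.02 and 0.49. With the mean of their probe sets Plcg1 turned to 0.28 and Malt1 to 0.11.

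**Figure D4:**
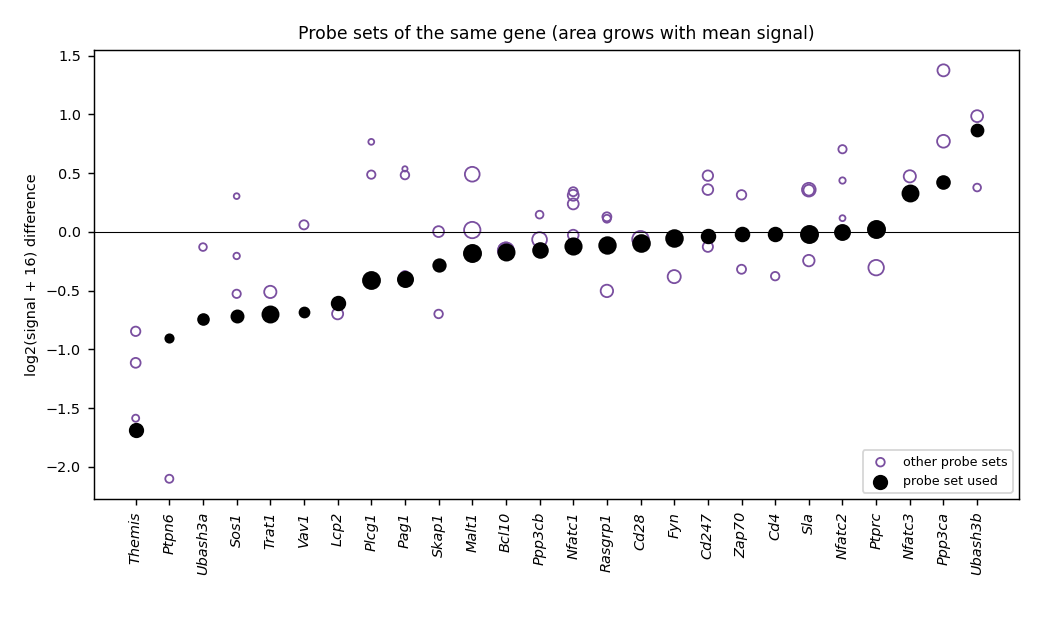
Log2(signal + 16) difference, GFP+ minus GFP- (y axis), of every probe set above the filter for the 26 members that have more than 1 (x axis, in order of the probe set used); filled points are the probe sets used, open ones the others, and area grows with mean signal. The probe sets of Themis, Ptpn6, Lcp2, Trat1, Ppp3ca and Ubash3b lie on the same side of 0, while the dim ones of Plcg1 and Pag1 reach the opposite side.

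Of the 26 members with a further probe set above the filter, 13 had one of opposite sign, namely Sos1, Vav1, Plcg1, Pag1, Skap1, Malt1, Ppp3cb, Nfatc1, Rasgrp1, Cd247, Zap70, Sla and Ptprc. Among the 12 members with an unadjusted p under 0.05 these were Sos1 and Vav1.

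Of the 5 calcineurin and NFAT genes, 0 had an unadjusted p under 0.05. For 2 of them, Nfatc3 and Ppp3ca, both GFP+ signals lay above both GFP- signals, as they did for 28.7% of all genes. Nfatc1 differed by -0.12 (-0.68 to 0.44) and Nfatc2 by 0.00 (-0.55 to 0.56), both with overlapping groups. Their other probe sets above the filter differed by -0.03 to 0.34 for Nfatc1 and by 0.12 to 0.70 for Nfatc2. The highest of each was dim, at mean signals of 82.9 and 66.5, and had groups apart. Nfatc3 had signals of 1825 and 1651 on the GFP- arrays and 2262 and 2128 on the GFP+ arrays, a difference of 0.34 (-0.18 to 0.85), and its other probe set differed by 0.47. Ppp3ca, a catalytic subunit of calcineurin, had 323 and 292 against 357 and 489, a difference of 0.42 (-0.18 to 1.03). Its 2 other probe sets differed by 0.77 and 1.38, each with groups apart, and the mean of its probe sets differed by 0.86. On the probe set used, the difference was 0.21 without GFP+ replicate 2, 0.64 without GFP+ replicate 1 and 0.12 under median scaling, where that of Nfatc3 was 0.018. Under median scaling Nfatc2 became -0.31, and with averaged probe sets Nfatc1 became 0.15. The other catalytic subunit gene, Ppp3cb, differed by -0.15 (-0.68 to 0.37).

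A wider set of 74 genes of the same pathway was examined beside the members, of which 60 were tested. There 7 were lower and 5 higher by the unadjusted threshold, which 4.37% and 10.2% of all genes passed, and 0 passed the adjusted one (limma). The 5 higher genes are a smaller share of the 60 than the higher genes are of all genes. Lower genes were the inhibitory adaptor gene Lax1 (-1.02), Map4k1 (-0.94), a kinase that restrains SLP-76, Tespa1 (-0.91), needed for thymocyte selection, and Sh2d1a (-0.59), the SLAM adaptor SAP. The Ras GTPase-activating protein genes Rasa3 and Rasal3 differed by -1.76 and -0.84 and the NF-kB kinase gene Ikbkb by -0.55. Rasa3 had signals of 326 and 157 on the GFP- arrays and 64.9 and 48.0 on the GFP+ arrays. Higher genes were the receptor phosphatase gene Ptprj (0.995), the calcineurin anchor gene Akap5 (0.97), Carmil2 (0.83), which links CD28 to PKC-theta, and Vav2 (0.71), a relative of Vav1. The last, Homer3, whose product competes with calcineurin for NFAT, had 6.56 and 28.8 on the GFP- arrays, with a mean under 27.3. It had 48.2 and 57.7 on the GFP+ arrays. Ptprj, Akap5, Carmil2 and Homer3 had mean signals under 100, where 13.9% of all genes were higher by the unadjusted threshold. Of the lower genes, Map4k1 was dim too, at 62.7, and 2.43% of genes under 100 were lower. Vav2 had 627 and 555 against 961 and 994, groups that did not overlap, on the side opposite to Vav1. The set's median was -0.11.

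**Figure D5:**
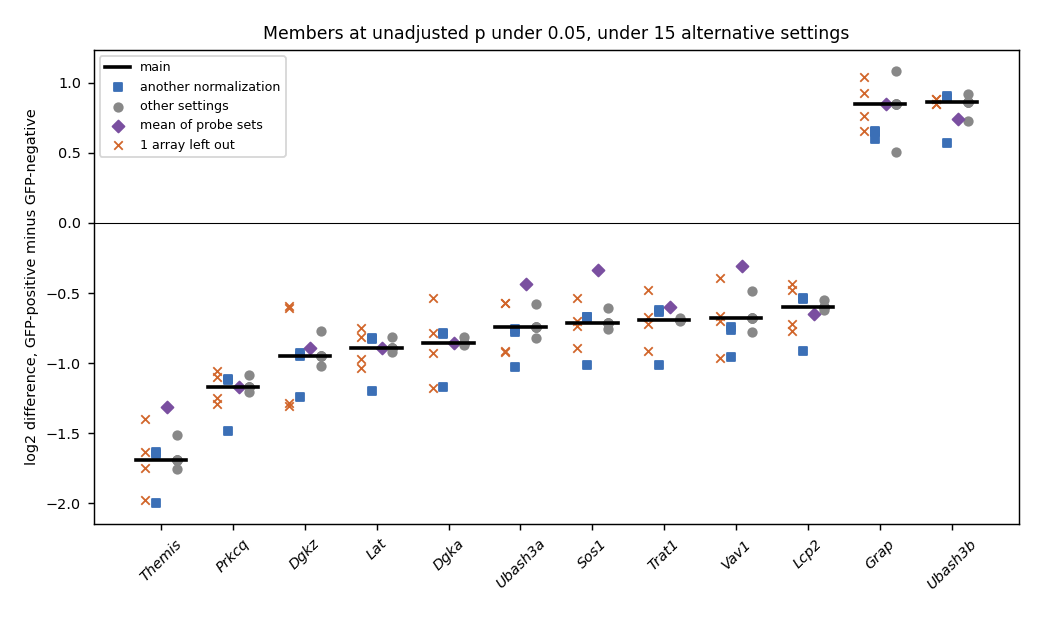
Log2 difference, GFP+ minus GFP- (y axis), of the 12 members with an unadjusted p under 0.05 (x axis): the black bar is the reported value, crosses leave out 1 array, squares use another normalization, diamonds the mean of probe sets and grey points the other settings. Each of the 12 stayed on its side of 0 in all 15 alternatives, from -1.99 to -1.31 for Themis and from 0.57 to 0.92 for Ubash3b. The groups of these 12 did not overlap, so leaving out 1 array or changing the pseudocount could not turn a sign. Filter, variance moderation and replicate block do not change a difference, so only normalization and probe set choice could.

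Precision was limited by 2 arrays per group. The half-width of the 95% interval was 0.56 at the median of the members, so at that width a log2 difference of smaller size has an interval that includes 0. For 25 of the 43 tested members the interval lay within 1 on either side of 0, as it did for 6961 of all 12253 genes.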

How the data were processed

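Total RNA from 2 GFP-positive and 2 GFP-negative samples was biotin-labelled for one-colour Affymetrix arrays, per the labels' protocols. The deposited values are linear intensities for 45101 probe sets, and the method that summarised them is not given in the sources used here. From the values, each array had been scaled to a trimmed mean of 150.0 (2% trimmed at each end), and medians ran from 36.1 to 46.0. Groups and replicate numbers came from the sample titles.

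Intensities were taken to log2 after adding 16, so differences of dim genes are understated. Probe sets were named through the platform annotation, in which 34958 had 1 symbol, 932 several and 9211 none, and gene identifiers of all 44 members found matched RefSeq. The probe set of highest mean log2 value stood for a gene, and a gene was tested if it exceeded the 40th percentile of the probe sets that are no controls, equal to a signal of 27.3. The test was limma 3.58.1 in R 4.3.3, two-sided (group as the only term, eBayes without trend, Benjamini-Hochberg over 12253 genes). Intervals are 95% intervals of that fit. On simulated data the fit was checked for bias and for the share of added differences called. How often the intervals held the simulated difference was not checked.

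Members and lists were chosen with earlier results of these data known, so no p is given for the list. Members with groups apart by 0.5 or an unadjusted p under 0.05, the receptor chains, Cd4 and the brightest members were named with signals on all arrays, and others with their difference. The 15 alternatives changed normalization, pseudocount, filter, probe set choice, variance moderation, the replicate block and the arrays used. Of the wider pathway set, 10 genes are not reported here. The number of arrays limits the precision.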

Additional observations from a re-analysis of the deposited data

How the results depend on the processing

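No reported member with an unadjusted p under 0.05 changed sign in any of 15 alternatives, 14 of them planned and the choice on linear means added after seeing the data. The groups of these members did not overlap, so only the normalizations and probe set choices could have turned a sign. The number of genes called over all genes, 4 as reported, was 0 under quantile, cyclic loess and median scaling, with a pseudocount of 1, without the filter, with the replicate block, with linear means and without any 1 array, and it was 175 with a pseudocount of 64, 50 with the filter at the 60th percentile, 8 with the mean of probe sets and 241 with trend and robust settings. Without 1 array, where the lone array of a group is assumed to vary like the other group, 342 to 506 genes were lower and 781 to 1109 higher at an unadjusted p under 0.05. Members called were 2 with a pseudocount of 64 (Themis -1.51 and Prkcq -1.08, adjusted p 0.0137 and 0.0225) and 2 with trend and robust settings (Themis -1.69 and Prkcq -1.17), otherwise 0. The cause of these shifts was not tested.

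With arrays set to equal medians (median scaling; median of all genes -0.20), 16 members were lower and 1 higher at an unadjusted p under 0.05, as were 13.9% and 4.02% of all genes, 19 were lower with groups apart by 0.5, the members' median was -0.48, and the wider pathway set had 22 lower and 2 higher. The members' median was -0.11 under quantile and -0.098 under cyclic loess normalization and -0.22 to -0.15 without 1 array. Without 1 array 5 to 8 members were lower and 1 to 2 higher, with 2 to 4 higher by groups apart by 0.5. In the wider set 3 genes were higher under quantile, cyclic loess, a pseudocount of 1, the 60th percentile and the mean of probe sets, and 1 to 4 without 1 array; 4 were lower with a pseudocount of 1, 12 with 64 and 13 with trend and robust settings.

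Signs turned for 15 members. Under quantile and cyclic loess normalization these were Cd247 (0.026 and 0.025), Cd4 (0.051 and 0.049), Fyn (0.014 and 0.023), Sla (0.052 and 0.065) and Zap70 (0.054 and 0.043). Under median scaling they were Cd5 (-0.19), Cd6 (-0.25), Nfatc2 (-0.31) and Ptprc (-0.29). With the mean of probe sets they were Cd247 (0.17), Malt1 (0.11), Nfatc1 (0.15), Pag1 (0.062), Plcg1 (0.28), Ptprc (-0.14), Sla (0.11) and Sla2 (0.14). Without 1 array the ranges were -0.20 to 0.13 for Cd247, -0.036 to 0.093 for Ptprc, -0.30 to 0.057 for Sla2, -0.12 to 0.096 for Cd4, -0.022 to 0.14 for Cd6, -0.12 to 0.13 for Nfatc2, -0.061 to 0.033 for Sla, -0.33 to 0.29 for Zap70, -0.16 to 0.045 for Fyn, -0.26 to 0.031 for Nfatc1 and -0.83 to 0.018 for Sh2d2a.

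The labels do not say that equal numbers share animals, and deviations of same-numbered arrays correlated at 0.198. With the replicate number as a block 11 members were lower and 2 higher at an unadjusted p under 0.05, and 0 genes were called.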
